A study of Mus musculus with 6 samples.

Results

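Open chromatin was compared between cultured brown adipocytes and cultured white adipocytes of the mouse, from 4 of the 6 ATAC-seq libraries of the series. ATAC-seq marks accessible DNA by where a transposase can insert, and each library was given as a list of peaks called by MACS2 on the mm10 genome at a q value under 0.05. The peaks of brown replicates 1 and 2 and of white replicates 1 and 2 were merged wherever they shared at least 1 bp, which gave 176860 regions. A region was called brown-only when both brown lists and no white list had a peak in it, white-only in the reverse case, and shared when all 4 lists had one. By this rule 5916 regions were brown-only (3.35% of all regions), 7183 were white-only (4.06%) and 62300 were shared (35.2%). The other 101461 regions had a peak in any other combination of lists, 71332 of them in exactly 1 list and 18578 in exactly 3.

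Both cultures were grown from the stromal vascular fraction, the non-adipocyte cells of a fat depot, of male wild type C57BL/6J mice 3 to 4 weeks old, and were collected on day 7 of differentiation. The brown cultures came from brown adipose tissue and the white cultures from inguinal subcutaneous fat. Per the labels, the brown induction medium held 5 μg/ml insulin, 5 μM dexamethasone, 0.5 mM isobutylmethylxanthine, 1 μM rosiglitazone and 1 nM T3, and that of the white cultures held 5 μg/ml insulin, 1 μM dexamethasone and 0.5 mM isobutylmethylxanthine. After 48 h the brown cultures were kept with insulin, T3 and rosiglitazone and the white cultures with insulin alone. The study's methods name a lower insulin amount for the white medium than the labels do. For the beige medium, to which the labels give the same amounts as to the brown one, they name a still lower amount. They describe no brown medium, so insulin may have differed between the groups too. Depot and medium both differ between the groups, so in every comparison here the effects of depot, rosiglitazone, T3 and dexamethasone cannot be told apart. The study describes white and beige ATAC-seq libraries but no brown ones. Whether brown and white libraries were made together is therefore not known, and a difference of batch cannot be told apart either. The lists held 109143 to 120473 peaks each, with no read counts, so the depth behind a peak is not known from them. Each group had 2 libraries, so no test between the groups was made (an exact permutation test allows no two-sided p below 0.333), and all shares are descriptions.

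Brown adipocytes burn fatty acids for heat through the uncoupling protein UCP1, and white adipocytes store and release lipid. The nuclear receptor PPARG directs both programmes, is switched on by rosiglitazone, and pairs with EBF2 and PRDM16 in brown cells, where PGC-1 coactivators, PPARA and the ERR receptors drive mitochondrial and fatty acid oxidation genes. Brown fat between the shoulders arises from the dermomyotome, which expresses Zic1, Pax3 and Pax7, whereas fat depots along the body axis keep the Hox genes of their position.

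Sequence is given for 8 of these regions as examples, which were picked by gene. Those near Lipe, Plin4, Sgk1, Ebf2 and Zic4 were also picked for holding the motif marked. They are therefore not typical of their class. Each sequence is the mm10 reference, plus strand, 100 bp to each side of the strongest summit. The first 7 were brown-only and the last was white-only. Capitals mark the motif named with each line, and a match is a description of the letters, not proof of a bound factor. The regions near Vdr and Fasl were those ranked highest in their class, and the others belong to the gene lists used below.
Vdr intron with the RUNX motif AACCACA (here on the minus strand) and the E-box CAGCTG, chr15:97887557-97887757: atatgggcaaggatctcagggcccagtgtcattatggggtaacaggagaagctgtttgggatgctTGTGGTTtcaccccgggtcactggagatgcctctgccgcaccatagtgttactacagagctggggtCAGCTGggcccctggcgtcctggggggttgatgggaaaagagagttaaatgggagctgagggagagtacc
Lipe with the STAT motif TTCNNNGAA, chr7:25391914-25392114: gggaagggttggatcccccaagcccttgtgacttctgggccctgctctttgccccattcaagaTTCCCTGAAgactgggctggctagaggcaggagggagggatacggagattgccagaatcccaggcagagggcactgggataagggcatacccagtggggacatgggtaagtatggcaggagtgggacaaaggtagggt
Plin4 with the PPAR motif, here on the minus strand, chr17:56111129-56111329: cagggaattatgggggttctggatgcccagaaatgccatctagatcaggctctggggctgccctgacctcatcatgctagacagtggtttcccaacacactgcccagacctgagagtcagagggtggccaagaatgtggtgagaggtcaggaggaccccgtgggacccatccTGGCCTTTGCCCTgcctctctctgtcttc
Sgk1 with the glucocorticoid receptor motif, chr10:21785808-21786008: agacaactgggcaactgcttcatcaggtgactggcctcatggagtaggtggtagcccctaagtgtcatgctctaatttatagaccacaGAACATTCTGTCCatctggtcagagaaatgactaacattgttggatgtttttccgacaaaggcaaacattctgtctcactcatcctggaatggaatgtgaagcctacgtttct
Ebf2 with the cyclic AMP motif TGACGTCA and the RUNX motif on the minus strand, chr14:67170355-67170555: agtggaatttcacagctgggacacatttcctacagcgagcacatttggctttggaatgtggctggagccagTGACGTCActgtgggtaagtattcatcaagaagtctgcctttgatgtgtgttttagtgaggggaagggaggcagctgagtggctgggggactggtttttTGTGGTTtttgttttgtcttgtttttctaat
Zic4 intron with the EBF motif, chr9:91380570-91380770: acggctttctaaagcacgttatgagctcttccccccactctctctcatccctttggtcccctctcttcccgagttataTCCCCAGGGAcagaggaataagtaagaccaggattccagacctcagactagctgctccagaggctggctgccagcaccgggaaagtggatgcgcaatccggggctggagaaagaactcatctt
Ucp1, with no match to a motif searched, chr8:83287787-83287987: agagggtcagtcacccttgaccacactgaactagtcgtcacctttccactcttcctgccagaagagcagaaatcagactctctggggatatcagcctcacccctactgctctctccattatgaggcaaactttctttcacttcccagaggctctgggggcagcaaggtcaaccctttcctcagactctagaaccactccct
Fasl with the RUNX motif AACCACA, chr1:161664440-161664640: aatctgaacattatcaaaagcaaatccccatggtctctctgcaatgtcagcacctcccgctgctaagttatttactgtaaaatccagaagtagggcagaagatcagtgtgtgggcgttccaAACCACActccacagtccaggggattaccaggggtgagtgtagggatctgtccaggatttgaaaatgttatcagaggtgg

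The Vdr region, 20.7 kb downstream of a start site of the vitamin D receptor gene, stood at the 85.1st and 85.7th percentile of −log10 q in the lists of brown 1 and brown 2, where 100 is the most significant peak of a list. The region 1.43 kb upstream of Plin4, a lipid droplet coat protein, was at percentiles 71.3 and 75.3 and was the highest-ranked brown-only region with a PPAR motif. The Fasl region, 124 kb from the start site of the Fas ligand gene, led the white-only class at percentiles 82.1 and 83.0 in white 1 and white 2.

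Regions open in 1 kind of culture were weak members of their lists. The median percentile of brown-only regions was 31.5 in brown 1 and 31.3 in brown 2, and that of white-only regions was 32.7 in white 1 and 32.3 in white 2. Shared regions had medians of 70.2 to 72.9 in the 4 lists. Peaks missing from another list ranked low between replicates too: those of brown 1 without overlap in brown 2 had a median percentile of 19.73. The brown 1 peaks with overlap in brown 2 had one of 63.15. The contrast of the classes is therefore partly a product of the class rule. Only 14 brown-only and 11 white-only regions stood above the 75th percentile in both of their lists. Among the genes nearest to those brown-only regions were Vdr, Slc35f5, Tab2, Tnfrsf19, 5031439G07Rik, Ppargc1b, Cerkl, Sfrp2, Chchd6, Ppara, Lipe, Erlin2 and Mrtfb. The region 21.9 kb from Sfrp2, a secreted inhibitor of Wnt signalling, was at percentiles 77.2 and 80.2, and the white-only region 82.0 kb upstream of Cpm, a carboxypeptidase gene, was at 78.7 and 82.2. A q value under 1e-05 in both lists was reached by 2776 brown-only regions (46.9%) and 3140 white-only regions (43.7%). A peak of the other group lay within 1 kb of 1533 brown-only regions (25.9%) and of 2500 white-only regions (34.8%).

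Lists of the same group were at most slightly more alike than lists of different groups. The Jaccard index, the bases shared by a pair of lists over the bases covered by either, was 0.627 for the brown pair and 0.581 for the white pair. Across groups it was 0.580 for brown 1 with white 1, 0.574 for brown 1 with white 2, 0.554 for brown 2 with white 1 and 0.541 for brown 2 with white 2. The brown pair was above all 4 pairs across groups, and the white pair was level with the closest of them. Of the peaks of 1 list, 73.0% and 72.4% recurred in the other white list, against 71.3% and 73.8% between white 2 and brown 1.

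**Figure D1:**
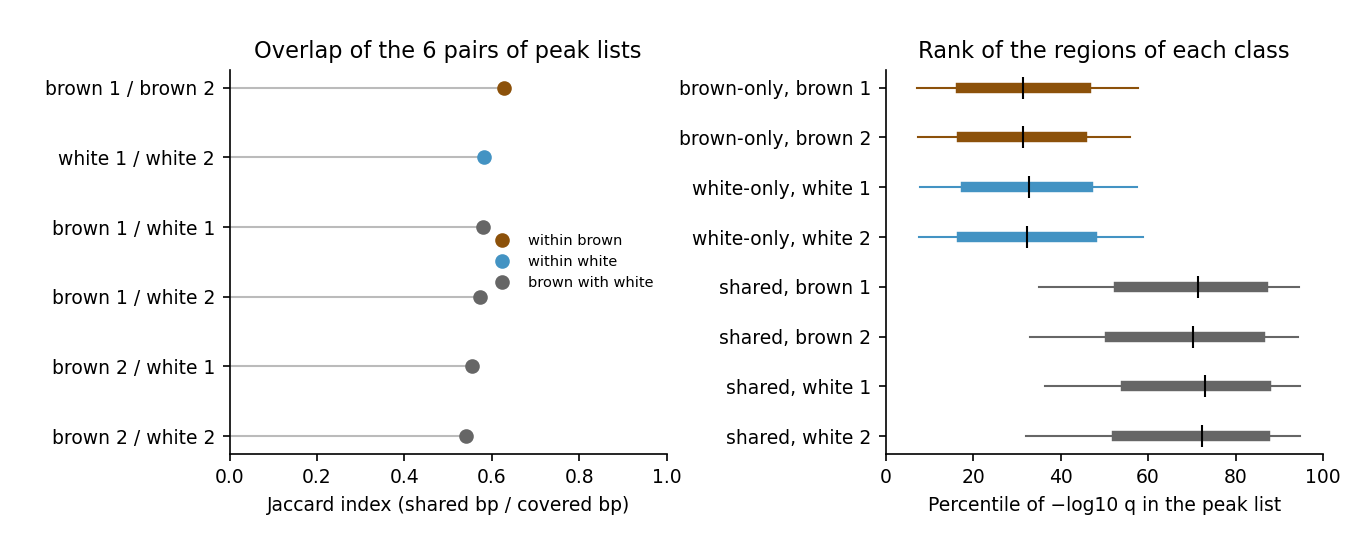
Left, Jaccard index of each pair of the 4 peak lists, from 0.541 (brown 2 with white 2) to 0.627 (brown 1 with brown 2). Right, percentile of −log10 q within its own list for the regions of each class (tick, median; thick line, 25th to 75th percentile of the regions; thin line, 10th to 90th), with medians of 31.3 to 32.7 for brown-only and white-only regions and of 70.2 to 72.9 for shared regions.

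Brown-only and white-only regions lay mostly away from promoters. A protein-coding start site was within 1 kb of 5.05% of brown-only regions (95% Clopper-Pearson interval 4.51% to 5.64%, counting error only, as for all intervals here), of 8.60% of white-only regions (7.97% to 9.28%) and of 24.0% of shared regions (23.7% to 24.3%). The median distance to the nearest start site was 35.3 kb (95% interval 33.1 to 37.1 kb) for brown-only, 32.7 kb (31.1 to 34.3 kb) for white-only and 18.03 kb (17.7 to 18.4 kb) for shared regions. Introns held 45.8% of brown-only and 47.3% of white-only summits, and exons 4.87% and 5.05%, against 11.6% of shared summits in exons. The window of 100 bp to each side of the summit held 49.9% G and C with 3.16 CpG dinucleotides on average in brown-only regions, 49.1% with 3.22 in white-only regions and 54.0% with 6.99 in shared regions. Between the exclusive classes the order of the promoter shares turned on white 2: without it the share was 7.47% for brown-only and 6.31% for white-only regions.

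**Figure D2:**
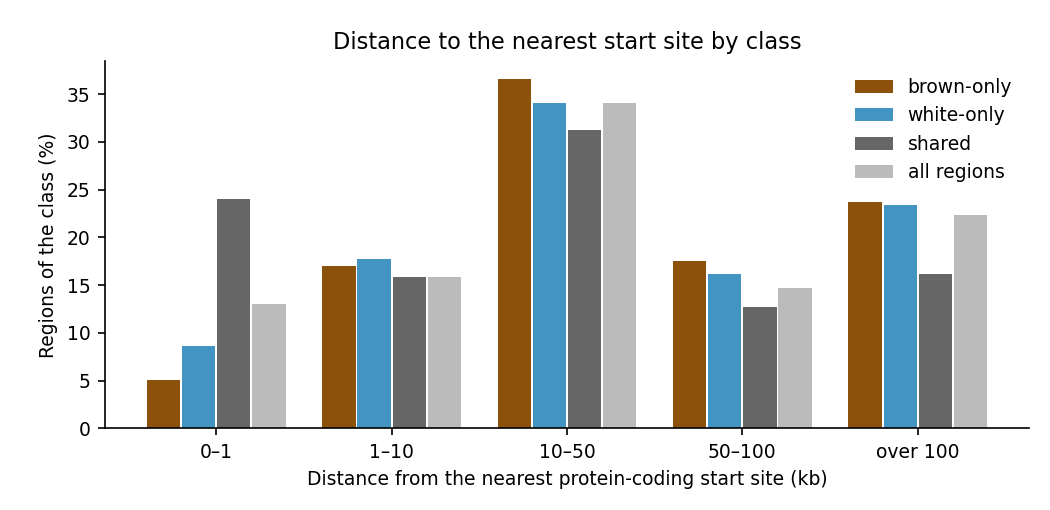
Share of the regions of each class (%) by distance from the nearest protein-coding start site (kb). Within 1 kb lay 5.05% of brown-only, 8.60% of white-only, 24.0% of shared and 13.04% of all regions, and beyond 100 kb lay 23.7%, 23.4%, 16.1% and 22.3%.

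Genes of heat production and of their regulators carried regions of both exclusive classes, with more brown-only than white-only ones. Among all 21938 protein-coding genes, 4019 (18.3%) were nearest to at least 1 brown-only region and 4703 (21.4%) to at least 1 white-only region, and brown-only regions made up 45.2% of the regions of the 2 classes. Of 20 thermogenic effector genes, 6 were nearest to a brown-only and 6 to a white-only region, but the regions numbered 16 and 6, so that 72.7% were brown-only. Ucp1 had 5 brown-only and 0 white-only regions, Ppargc1a (PGC-1α, the coactivator of mitochondrial genes) had 5 and 0, and Cidea (a lipid droplet protein high in brown fat) had 3 and 0. Most brown-only regions of the list lay near Ucp1, Ppargc1a and Cidea, and regions near 1 gene are not independent of each other. The 6 white-only regions were spread 1 each over Bmp8b, Adrb3, Cox8b, Dio2, Kcnk3 and Ucp3. The brown-only share of this list lay above that of all regions in 7 of 7 settings, which were the settings used here, the stricter q value, lists of equal length and each library left out. Regions exclusive by the rule used here stay so when a library is left out. The settings are therefore not independent, here and for the lists below, and their agreement is no separate support.

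The brown-only regions of Ucp1 formed a group upstream of the gene. They lay 5.77, 4.78 and 2.47 kb upstream of the start site, 0.124 kb upstream of it and 9.97 kb downstream. The region at 2.47 kb, chr8:83287701-83288049, stood at percentiles 50.6 and 50.2 in brown 1 and brown 2, and the one at the start site at only 10.1 and 3.16. Within 40 kb of the 5′ end of Ucp1 the lists held 10 peaks in each brown library, 6 in white 1 and 4 in white 2. Such counts, here and at the other genes below, include the peaks that define the exclusive regions. They are therefore no evidence beyond those regions. Ucp1 was also nearest to 4 shared regions and to 0 white-only regions. Neither white library had a peak summit within 1 kb of the Ucp1 start site.

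Ppargc1a kept its 5 brown-only regions far from the gene body start, from 54.0 kb upstream to 512 kb downstream, and its promoter had a peak in all 4 libraries. The strongest, chr5:51607738-51608270, was at percentiles 59.9 and 62.6. All 5 held an AP-1 motif, which was in 27.4% of brown-only, 26.7% of shared and 21.6% of all regions. Without brown replicate 1 that motif was less frequent in brown-only than in white-only regions. At Cidea the regions lay 13.6 and 7.12 kb upstream and 8.34 kb downstream, the first of them at percentiles 68.3 and 66.6.

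Brown fate regulators were open at their promoters in all 4 libraries, 16 of 16, against 62.6% of all genes with a promoter peak in all 4 lists. They were nearest to 32 brown-only and 22 white-only regions (59.3% brown-only), 1 of which, a white-only region of Ppargc1b, lay within 1 kb of a start site. Ppara, the fatty acid oxidation receptor, had 5 brown-only and 0 white-only regions. The strongest, 14.8 kb upstream at chr15:85720284-85721021, was at percentiles 75.7 and 78.1 and was among the 15 highest-ranked brown-only regions, as was the one 37.9 kb upstream of Ppargc1b (PGC-1β) at percentiles 78.1 and 84.6. Within 40 kb of the 5′ end of Ppara the lists held 14 and 13 peaks in brown 1 and brown 2 and 6 and 10 in white 1 and white 2. Prdm16 and Cebpb had 2 brown-only regions each and 0 white-only ones. Ebf2, in contrast, had 4 brown-only and 7 white-only regions, the latter all within the gene from 37.5 to 110 kb downstream of the start site, and Nfia, Ppargc1b and Zfp516 had as many of one class as of the other. Without brown replicate 1 the brown-only share of the list fell below that of all regions, at 60.2% against 62.2%.

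Lipid genes had more brown-only than white-only regions. The 20 adipocyte lipid genes, most of them known PPARG targets, had 24 brown-only and 7 white-only regions (77.4% brown-only, and between 54.6% and 86.2% in the other settings, in each above all regions). A brown-only region was nearest to 12 of the 20 genes and a white-only region to 4. Pdk4, the kinase that spares glucose by shutting pyruvate dehydrogenase, had 5 and 0, Cd36, a fatty acid transporter, 5 and 1, Acsl1, which activates fatty acids, 4 and 0, and Gpd1, of glycerol phosphate synthesis, 2 and 0. Lipe, hormone-sensitive lipase, had 1 at percentiles 75.6 and 78.6, placed 1.91 kb upstream of a start site. Lpl and Plin2 went the other way, with 1 brown-only and 3 white-only regions for Lpl and 1 and 2 for Plin2, a lipid droplet coat protein.

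At Pdk4 the regions at 2.65 kb upstream (percentiles 72.6 and 81.3) and 11.7 kb upstream (71.4 and 64.6) were the strongest, and 3 weaker ones lay 9.85 to 15.4 kb downstream. The promoter itself was among the top peaks of every list, at percentiles 96.5, 95.01, 97.5 and 97.3 in brown 1, brown 2, white 1 and white 2. Within 40 kb the lists held 13 and 9 peaks in the brown libraries and 5 and 4 in the white. Both white lists ranked the promoter above both brown ones, while the exclusive regions beside it were brown-only. The Acsl1 region at chr8:46490822-46491155, 0.027 kb from an annotated start site, was at percentiles 58.7 and 62.7, although another start site of Acsl1 had a peak in all 4 libraries.

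**Figure D3:**
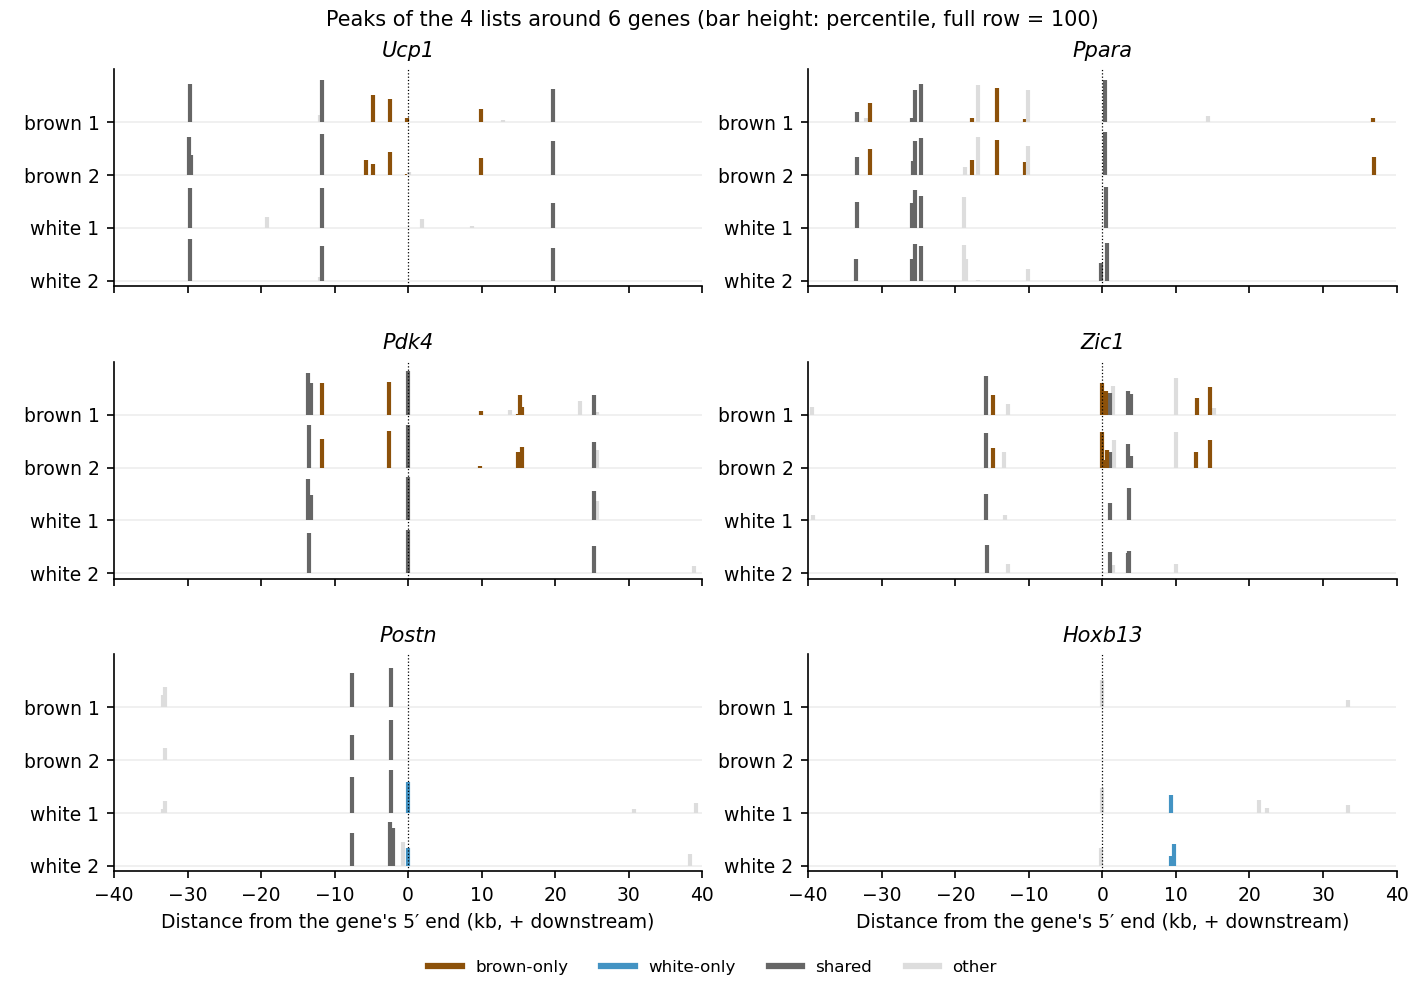
Peaks of the 4 lists within 40 kb of the 5′ end of Ucp1, Ppara, Pdk4, Zic1, Postn and Hoxb13 (x axis, distance in kb, positive downstream; 1 row a library, bar height the percentile of the peak in its list, colour the class of its region). The 2 brown rows hold 9 to 14 peaks at Ucp1, Ppara, Pdk4 and Zic1 and the 2 white rows 4 to 10, while at Postn the white rows hold 7 and 6 peaks and the brown rows 4 and 3. All genes shown have brown-only or white-only regions, and the counts include the peaks that define those.

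The dermomyotome genes were mixed. Their 13 members had 12 brown-only and 10 white-only regions (54.6% brown-only, above all regions in 7 of 7 settings). Zic1 had 4 brown-only and 0 white-only regions, 2 of them at its promoter, where the summits of brown 1 and brown 2 stood at percentiles 70.1 and 80.3. Both white lists had peaks whose summits lay just beyond 1 kb from the start site, and the call of a brown-only Zic1 promoter did not hold at 3 kb. Within 40 kb of the 5′ end of Zic1 the lists held 14 and 13 brown peaks against 5 and 7 white ones. Pax7 had 3 brown-only and 0 white-only regions, without a promoter peak in any list. Meox2, Sim1, Lhx8 and Pax3 had 3, 2, 2 and 2 white-only regions, and of these genes Meox2 alone had a brown-only one. The muscle genes Myf5 and Myf6 had no promoter peak in any library and no region of either class.

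Hox genes split by their position in the clusters. The 15 anterior genes, of paralogue groups 1 to 5, had 8 brown-only and 2 white-only regions. The 16 posterior genes, of groups 9 to 13, had 0 brown-only and 5 white-only regions, and the 8 central genes had 0 and 1. Hoxc5 had 3 brown-only regions, and Hoxa2, Hoxb2, Hoxc4 and Hoxd4 were among those with 1 each. The promoters of Hoxa2 and Hoxb2 were open in brown 1 and brown 2 and in neither white library, at percentiles 61.6 and 49.6 for Hoxa2 and 1.74 and 20.0 for Hoxb2, whose call was lost at 3 kb. Hoxc13 had 2 white-only regions and Hoxa11, Hoxb9 and Hoxb13 had 1 each, that of Hoxb13 at percentiles 40.1 and 48.2. The posterior genes had more white-only than brown-only regions in 7 of 7 settings, and the brown-only share of the anterior genes was above that of all regions in 7 of 7. Regions of 1 Hox cluster are neighbours and are not independent of each other.

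Motif shares differed between the classes for EBF, RUNX and HOX in particular. Consensus sequences of 27 motif families were searched on both strands within 100 bp of the summit. Matches of 6 families were more frequent in brown-only regions and of 3 in white-only regions, with intervals that did not overlap. These intervals count regions and do not measure the spread between libraries. Some of these differences reversed when a library was left out, as given below. The EBF motif (TCCC and GGGA parted by 2 bases) was in 2.28% of brown-only regions (1.92% to 2.70%), 1.00% of white-only regions (0.785% to 1.26%), 1.53% of shared regions and 1.37% of all regions. The RUNX motif (AACCACA) was in 7.67% of brown-only (7.01% to 8.38%), 4.59% of white-only (4.12% to 5.10%), 5.04% of shared and 5.36% of all regions. The posterior HOX motif (TTTATGG, the preferred letters of proteins of groups 9 to 13) was in 1.56% of brown-only (1.26% to 1.90%) but 2.95% of white-only regions (2.57% to 3.37%), with 1.71% of shared and 1.95% of all regions.

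These 3 differences had the same direction in each pair of single libraries. Of the peaks of a brown list without overlap in a white list, 1.51% to 1.94% held the EBF motif over the 4 pairs of libraries, against 0.877% to 1.13% of the peaks of a white list without overlap in a brown list. For the RUNX motif the ranges were 5.45% to 7.09% and 4.68% to 5.19%, and for the posterior HOX motif 1.54% to 1.91% and 2.33% to 2.49%. With each library left out in turn, EBF stayed 0.424 to 1.45 and RUNX 0.829 to 3.09 percentage points higher in brown-only regions. For posterior HOX the difference was -1.31 to -0.601 points (brown-only minus white-only). The pairs share libraries and are not independent. Peaks of the brown-only and white-only regions are also part of the sets of every pair and of every left-out library. The agreement is therefore partly built in. The ranges of the 2 sides did not overlap for 12 of the 27 families, 11 with the brown side higher and posterior HOX with the white side higher.

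The PPAR, glucocorticoid receptor, thyroid hormone receptor, cyclic AMP and ERR motifs were rare in every class. Rosiglitazone and T3 were in the brown medium alone, whereas both media held dexamethasone and the same 0.5 mM isobutylmethylxanthine. The PPAR motif (AGGNCA repeated after 1 base) was in 0.642% of brown-only (0.455% to 0.881%) and 0.334% of white-only regions (0.214% to 0.497%), which is 38 and 24 regions, with 0.451% of all regions, and these intervals overlapped. Between single libraries it was higher on the brown side in 4 of 4 pairs, at 0.559% to 0.606% against 0.376% to 0.484%. The glucocorticoid receptor motif (GNACA and TGTNC parted by 3 bases) was in 0.964% of brown-only and 0.529% of white-only regions, or 57 and 38 regions, with 0.633% of all regions. It stood at the summit of the brown-only region 96.3 kb upstream of Sgk1, a glucocorticoid-induced kinase gene with 4 brown-only and 0 white-only regions. The thyroid hormone receptor motif (AGGNCA repeated after 4 bases) was in 0.541% and 0.418%, with overlapping intervals and 0.463% of all regions. The cyclic AMP motif (TGACGTCA) was in 0.795% (0.584% to 1.06%) and 0.278% (0.170% to 0.430%), with 0.666% of all regions. Without brown replicate 1 the intervals of the cyclic AMP and glucocorticoid receptor motifs overlapped too. The ERR motif (TCAAGGTCA) was in 0.423% and 0.223%, with overlapping intervals and 0.346% of all regions. The 10 glucocorticoid response genes had 12 brown-only and 7 white-only regions and the 6 thyroid hormone response genes 5 and 5, and each list was above the brown-only share of all regions in 6 of 7 settings.

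For 4 further families the difference rested on single libraries. The AP-1 motif (TGANTCA) was in 27.4% of brown-only and 18.3% of white-only regions, with 26.7% of shared and 21.6% of all regions, and the TEAD motif (GGAATGT) in 6.19% and 4.497%, with 4.38% of all. Without brown replicate 1 both turned, to a difference of -7.38 percentage points for AP-1 and -0.789 points for TEAD (brown-only minus white-only). Among peaks of brown 2 without overlap in white 1, 15.4% held the AP-1 motif, below the 19.3% of the reverse set, whereas brown 1 gave 22.9% and 28.2% against white 1 and white 2. Brown 2 against white 2 gave 19.4%, above the 15.8% of its reverse set, so the brown side was higher in 3 of 4 pairs. The C/EBP motif (TTGCNNAA) was in 14.0% and 15.8%, with 12.2% of all regions, and the CTCF motif in 1.17% and 2.12%, with 2.86% of all regions, and without white replicate 2 both were higher in brown-only regions, by 2.93 and 2.11 points. CTCF matches were most frequent in shared regions, at 4.82%.

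The other motifs searched differed less or were rare. Their intervals overlapped between brown-only and white-only regions. They were ETS (CCGGAAGT), found in 0.867% of all regions, PU.1 (GAGGAAGT) in 1.80%, ZIC (CAGCAGGNG) in 2.90%, PBX-HOX (TGATTNAT) in 3.58% and homeodomain (TAATTA) in 2.53%. The E-box (CAGCTG) was found in 15.5%, SOX (CCATTGT) in 2.51%, FOX (TGTTTAC) in 2.30%, STAT (TTCNNNGAA) in 6.28%, T-box (AGGTGTGA) in 0.571% and KLF/SP (GGGGCGGGG) in 2.34%. NFI (TTGGC and GCCAA parted by 5 bases), MEF2, SRF and NF-kB were found in 0.0645%, 1.35%, 0.963% and 2.85%. Matches of different families could overlap each other, as those of ETS and PU.1 or of the 2 forms of AGGNCA repeats may.

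**Figure D4:**
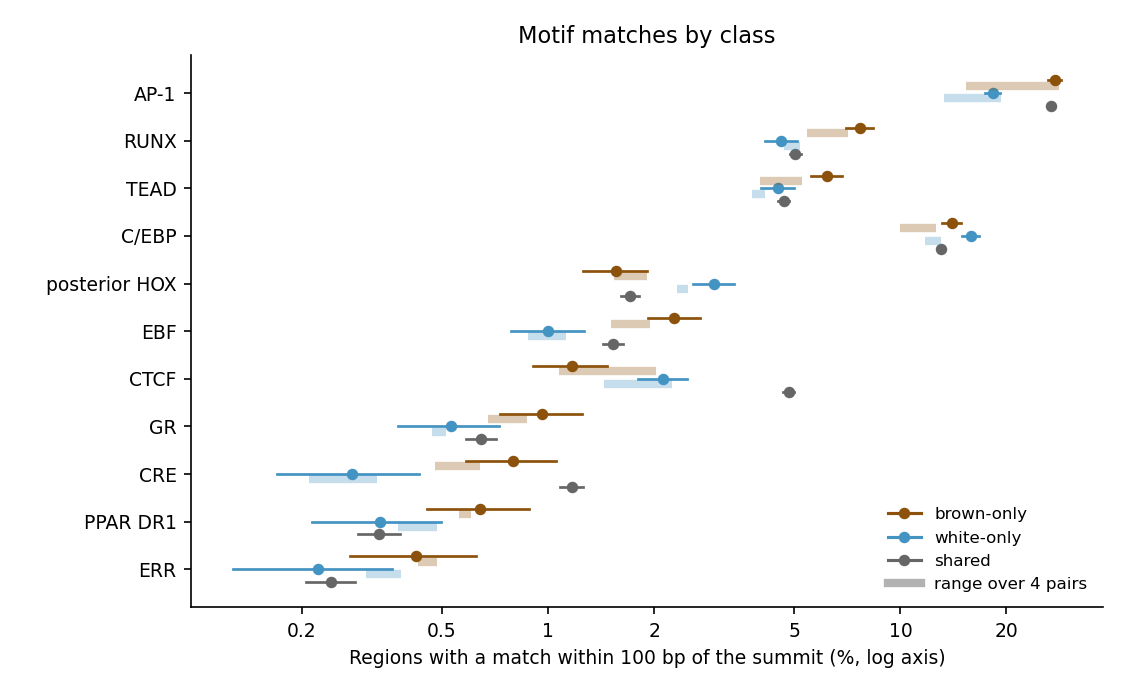
Share of the regions of each class with a match to a motif family within 100 bp of the summit (%, log axis; dots with 95% Clopper-Pearson intervals), and the range of the shares over the 4 pairs of a brown and a white library (pale bars). EBF stands at 2.28% in brown-only and 1.00% in white-only regions and posterior HOX at 1.56% and 2.95%, and for both the pale bars of the 2 sides do not overlap.

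Progenitor and matrix genes stood near the background as a list. The 17 genes had 12 brown-only and 17 white-only regions, and their brown-only share of 41.4% was close to the 45.2% of all regions (below it in 5 of 7 settings). Postn, which encodes the matrix protein periostin, had 0 brown-only and 3 white-only regions. Its promoter region, chr3:54360918-54361217, was at percentiles 70.0 and 40.5 in white 1 and white 2. Within 40 kb of its 5′ end the lists held 4, 3, 7 and 6 peaks in brown 1, brown 2, white 1 and white 2. Col3a1 had 1 brown-only and 3 white-only regions and Col1a1 0 and 2. The progenitor gene Dlk1 had 3 brown-only and 1 white-only regions, and Ccn2 3 and 2. The 14 white and inguinal depot genes had 12 brown-only and 7 white-only regions, and the members differed: Tbx15, a marker of inguinal fat, had 2 and 3, Lep, the leptin gene, 2 and 0, and Wt1, a visceral fat gene, 2 and 1. In 4 of 7 settings this list was above the brown-only share of all regions.

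**Figure D5:**
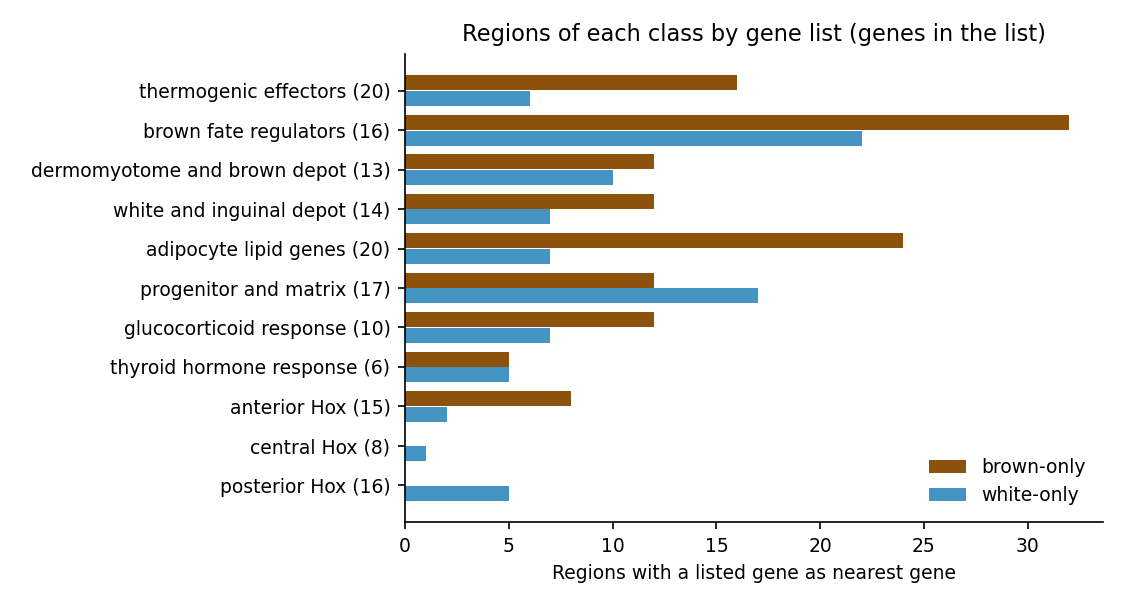
Number of brown-only and white-only regions whose nearest protein-coding gene belongs to each list, with the number of genes of the list in parentheses. Lipid genes have 24 brown-only and 7 white-only regions, thermogenic effectors 16 and 6, anterior Hox genes 8 and 2, posterior Hox genes 0 and 5, and progenitor and matrix genes 12 and 17.

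Few promoters belonged to 1 group alone. A gene was counted when a summit lay within 1 kb of any of its start sites in both libraries of a group and in neither of the other. This held for 104 genes on the brown side (0.474% of 21938) and 116 on the white side (0.529%). With 3 kb as the limit, 58 and 64 of them remained, and with a q value under 1e-05, 43 and 38. The highest-ranked brown-only promoters were those of Thrsp, the thyroid hormone responsive lipogenic protein, at percentiles 71.4 and 79.7, Klc3, a kinesin light chain, at 79.6 and 70.3, and Zic1. Ltbp4, a matrix protein that binds latent TGF-β, and Hoxa2 followed. Ucp1 and Gpd1 were among the 104, Gpd1 at percentiles 8.92 and 33.8. Of these genes only Hoxa2 kept the call at 3 kb. On the white side the highest were Siglec1, Gm17409, Tmem69, Alox12e and Postn, followed by Dpt, the matrix gene of dermatopontin, at percentiles 67.7 and 49.3. Lum, which encodes the matrix proteoglycan lumican, was also among the 15, at 49.8 and 39.5, and kept the call at 3 kb, as did Siglec1, Gm17409 and Alox12e, whereas Tmem69, Postn, Dpt and Cx3cr1 lost it.

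Promoters open in all 4 libraries were also compared by rank. Of the 13726 genes with such a promoter, 3968 (28.9%) had both brown percentiles above both white ones and 3170 (23.1%) the reverse. A random order of 2 values against 2 separates the groups in 1 direction or the other with a probability of 0.333. Much of these counts can therefore arise without a group difference. Ranked among these promoters alone, an alternative chosen after seeing the data, 3496 were higher in brown and 3594 in white, which turns the order of the 2 counts. Among the lists, 8 of 10 glucocorticoid response genes were higher in brown and 0 in white, most by small gaps near the top of the lists: Fkbp5 stood at 96.4 and 98.5 in brown 1 and brown 2 and at 95.6 and 89.5 in white 1 and white 2. Brown fate regulators were higher in brown for 8 of 16 and in white for 1 of 16. Of the thermogenic effectors 3 were higher in brown, 2 in white and 8 overlapped, and of the lipid genes 7, 3 and 8. Otop1, a thermogenic effector, was at 9.29 and 11.3 in brown and 41.1 and 47.6 in white. Cidea was at 82.0 and 83.2 in brown and 49.2 and 65.6 in white, Cidec at 84.6 and 89.2 against 62.6 and 54.5, and Adipoq at 71.7 and 68.1 against 24.5 and 55.9. These genes were picked after their values were seen.

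Depot genes were mixed. Of the dermomyotome list, En1 was at 84.3 and 84.2 against 67.4 and 65.3, and Lhx8 at 70.2 and 72.8 against 48.4 and 52.3, both higher in brown, and Meox2 at 63.3 and 60.5 against 77.8 and 84.3, higher in white. Hoxa5, an anterior Hox gene, was at 90.7 and 89.6 in brown and 58.9 and 29.9 in white, while the posterior genes Hoxa9 and Hoxa10 were higher in white, Hoxa9 at 70.6 and 73.4 against 57.9 and 53.2. Of the posterior genes 4 were higher in brown, among them Hoxd10 and Hoxc10, 3 were higher in white and 3 overlapped. Of the anterior genes 4 were higher in brown, 2, Hoxa3 and Hoxd3, were higher in white and 4 overlapped. The promoter ranks therefore did not split by position in the clusters as the exclusive regions did. Col3a1 was at 52.9 and 54.6 in brown and 84.2 and 75.3 in white, and Cd34 at 58.7 and 51.1 against 80.6 and 70.4. Pdgfrb, also of the progenitor list, was higher in brown, at 82.6 and 85.9 against 70.6 and 68.2.

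Among the widest gaps over all genes were other metabolic promoters. Acox2, a peroxisomal acyl-CoA oxidase of branched fatty acids and bile acid intermediates, was at 84.1 and 83.3 in brown and 21.6 and 10.97 in white, the largest gap on the brown side. Ddo, D-aspartate oxidase, followed at 79.5 and 84.3 against 25.9 and 30.3. On the white side, Angpt1, the ligand angiopoietin 1 and the next after the zinc finger gene Zfp811, was at 19.7 and 25.04 in brown and 69.7 and 73.3 in white. These 3 genes were picked for their gaps, which are given as a description.

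The promoters of the adipocyte markers were open in all 4 libraries, as were those of 62.6% of all genes. All 8 adipocyte markers (among them Pparg, Fabp4, Adipoq and Plin1) had a promoter peak in every library. Of 8 macrophage markers, Cd14, Cd68 and Adgre1 had a promoter peak in all 4 libraries and Spi1, Csf1r, Ptprc, Itgam and Mrc1 in none. Cd14 was higher in white, at percentiles 78.3 and 86.3 against 64.4 and 73.1, whereas Cd68 and Adgre1 overlapped between the groups. Siglec1 and Cx3cr1, which are also expressed by macrophages, had white-only promoters, that of Cx3cr1 lost at 3 kb. They are not in the list and were picked after their values were seen. On the brown side Lyve1, Eng and Esm1, also outside the lists, had brown-only promoters that held at 3 kb. Promoters were open in all 4 libraries for 4 of 8 endothelial markers, and of 8 smooth muscle and pericyte markers 6, of 5 Schwann cell markers 2 and of 5 epithelial markers 2, and of 8 muscle lineage markers 1. In such bulk cultures a larger share of a cell type and a more open site in each cell cannot be told apart, and the part of other cell types in the class differences was not tested.

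The genes with the most regions of a class were as follows. Celf4 and Myc had 9 brown-only regions each and Zfp703 and Nav2 had 8, while Gm11146 and Myc had 11 white-only regions each and Marcks and Auts2 had 10. The regions assigned to Myc spread over 1049 kb on the brown side and 1224 kb on the white side among 135 regions in all. Chst11, a chondroitin sulfotransferase gene, had 7 brown-only, 0 white-only and 12 shared regions among 29, and Hsf2, a heat shock factor gene, had 0, 8 and 9 among 42. Nearest-gene assignment does not show that a region acts on that gene.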

How the data were processed

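The peak lists of 2 brown and 2 white ATAC-seq libraries were analysed, with groups taken from the labels, and the beige libraries were not used here. Per the labels' processing notes, the authors used BWA, SAMtools and MACS2 with mm10. Versions for the brown libraries are not given in the sources used here. Each list held peaks of 1 library with a q value under 0.05. The deposited fold enrichment is a ratio to the library's own local background. The deposited −log10 p and −log10 q belong to each summit. Both depend on a library's own depth, so they gave only the rank of a peak inside its list.

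Several summits of 1 interval were counted as 1 peak, at the summit of highest −log10 q. Intervals overlapping by 1 bp were merged. The tools were pysam 0.24.0, scipy 1.17.1, pandas 2.3.3 and numpy 2.4.6 in Python 3.11.15, with matplotlib 3.10.9 for figures. Start sites were those of protein-coding transcripts of GENCODE M21 basic on GRCm38, the genome that gave all sequences. Motifs were exact consensus matches with no background model. The scripts were tested on simulated data.

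The members, gene lists, motifs and comparisons were chosen with earlier results of these data known. Named were genes of the lists, the 15 regions of each exclusive class with the highest lower percentile, the 10 genes with most regions and the 15 exclusive promoters of highest rank in each group, with examples picked after values were seen. The ranks of promoters open in all libraries were also added after seeing the data. No test was made, and intervals cover counting error only. Alternatives were other q values, lists of equal length, other rules of overlap, distance, window and rank, and each library left out. Some items are not reported here.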

Additional observations from a re-analysis of the deposited data

How the results depend on the processing

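No paired analysis was made, since the labels link no brown library to a white one, and the peak lists were compared without any test. The peak lists carry no depth, and a missing peak is not closed chromatin. With a q value under 1e-05 there were 0.986 brown-only regions per white-only region, with lists of equal length 1.11, with an overlap of 0.5 of both peaks 0.897 and with the summit inside the other peak 0.753. At that q value the promoter share was 5.99% for brown-only and 26.8% for shared regions, the median distance 30.8 and 15.6 kb, and the Jaccard index 0.670 within brown, 0.622 within white and 0.600 on average between groups. Lists of equal length gave shared regions a promoter share of 24.5% and a median distance of 17.6 kb. The promoter shares of brown-only, white-only and shared regions were 9.43%, 14.7% and 28.8% within 3 kb and 2.16%, 2.07% and 18.1% within 250 bp. With 1 start site per gene their median distances were 42.5, 39.1 and 22.3 kb. Ranked by fold enrichment, their median lower percentiles were 22.8, 24.9 and 56.9. The glucocorticoid receptor difference was 0.464 points at the stricter q value, 0.217 points in windows of 50 bp and 0.325 points with GC content standardised, each with overlapping intervals, as were C/EBP at -0.829 and CTCF at -0.555 points with GC standardised. The cause of these shifts was not tested.

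Leaving out 1 library loosens the class rule, since 1 list then stands for a group. It gave 10520 to 22855 brown-only and 10079 to 28773 white-only regions, a ratio of 0.366 to 2.04, and 65675 to 69182 shared regions. Promoter shares ran from 4.30% to 7.47%, 6.31% to 11.6% and 22.9% to 23.6% for brown-only, white-only and shared regions, and median distances from 31.2 to 45.9, 30.9 to 33.6 and 18.4 to 18.8 kb. Brown-only regions were nearest to 6141 to 9120 genes and white-only regions to 5921 to 10841, with 210 to 314 brown-only and 198 to 362 white-only promoters. The AP-1 difference ran from -7.38 to 19.01 points and TEAD from -0.789 to 2.17, both reversed without brown replicate 1. C/EBP ran from -5.33 to 2.93 and CTCF from -2.10 to 2.11, both reversed without white replicate 2. The ranges were 0.147 to 0.640 for the glucocorticoid receptor and 0.183 to 0.590 for the cyclic AMP motif. Promoters ranked higher in brown numbered 5139 to 6505 and in white 4359 to 5298, and 3496 and 3594 when ranked among promoters alone, alternatives chosen after seeing the data.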
